A study of Mus musculus with 2 samples.

Results

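The enzymes that break down threonine and glycine, make serine and move single carbon units on folate were compared between mouse ES cells and E10.5 forebrain. The 10 genes were chosen by symbol, namely *Tdh*, *Gldc*, *Phgdh*, *Psat1*, *Psph*, *Shmt1*, *Shmt2*, *Mthfd1*, *Mthfd2* and *Mat2a*, and all 10 are among the 29311 genes listed in the tables of both samples, of which 19620 are protein-coding. Wild type E14 ES cells, grown without feeders on gelatin in medium with serum and LIF, gave 1 sample, and dissected wild type E10.5 forebrain of the B6CBAF1/J strain, called the forebrain from here on, gave the other. Neither sample had a treatment or replicate, so each difference described is between these 2 libraries, and no test between cell types could be made. The study's methods state that forebrain RNA came from single embryos.

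Threonine dehydrogenase oxidises threonine in mitochondria, and its product is split into glycine and acetyl-CoA. Serine is made from a glycolytic intermediate by the phosphorylated pathway, and serine hydroxymethyltransferases pass its side-chain carbon to tetrahydrofolate, as the glycine cleavage system does with a carbon of glycine. Folate-bound carbon units serve purine and thymidylate synthesis and the remethylation of homocysteine, and mouse ES cells are known for their dependence on threonine as a carbon source for this pool and for S-adenosylmethionine.

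Values are the deposited RPKM, reads per kb of exon on a scale set by the authors. Levels may thus be compared between genes of different length, except where copies elsewhere in the genome could share or lose reads. Intervals in brackets are exact 95% intervals on the reads behind a value, which were inferred from the deposited values (in total 42760915 for ES cells and 59734542 for the forebrain). They cover counting error only and not the spread between embryos or cultures. Inferred reads were rounded to whole numbers for them, so the intervals are approximate where fractions of a read were counted. Ratios called 2-fold or more are those with a difference of at least 1 in log2(RPKM + 1).

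The labels of both samples were checked with lists of marker genes. All 10 ES cell markers were at least 2-fold higher in ES cells, with a summed RPKM of 42385 against 313. Of 12 markers of forebrain progenitors and early neurons, *Sox1* was not found among the listed genes. The 11 listed ones were all at least 2-fold higher in the forebrain, with a sum of 15013 against 1085. Other cell types were also seen in the forebrain sample. All 6 markers of primitive erythroid cells were at least 2-fold higher there (sum 675353 against 363 in ES cells). So were all 7 of head mesenchyme (8000 against 60.4) and 4 of 5 endothelial markers. All 5 endothelial markers together summed to 2096 in the forebrain against 605 in ES cells. The remaining endothelial marker, *Pecam1*, went the other way, at 316.51 in the forebrain and 551.14 in ES cells. In such bulk samples, fewer cells of a type and less RNA per cell cannot be told apart. The part of the other cell types in the values of the 10 enzymes was not tested.

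The sequences of *Tdh*, *Phgdh* and *Psat1* are shown first. Each has a listed pseudogene elsewhere in the genome that matches some 50-base windows of its exons with 2 or fewer differing bases. *Shmt2* has such a pseudogene too but is not shown. Each pair gives 100 coding bases from near the 3′ end of the enzyme and the same stretch of a listed pseudogene, 5′ to 3′ in NCBIM37, with the position and strand, and capitals mark the bases that differ.

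Tdh chr14:64111547-64111646 (-): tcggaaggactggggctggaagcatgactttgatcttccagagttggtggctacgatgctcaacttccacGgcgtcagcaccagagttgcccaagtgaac
Gm13929 chr2:111841359-111841458 (+): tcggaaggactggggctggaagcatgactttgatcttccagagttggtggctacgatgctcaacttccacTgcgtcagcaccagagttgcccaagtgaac
Phgdh chr3:98117233-98117332 (-): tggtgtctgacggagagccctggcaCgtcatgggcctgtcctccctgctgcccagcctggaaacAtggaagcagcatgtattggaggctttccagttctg
Gm7901 chr8:78235499-78235598 (-): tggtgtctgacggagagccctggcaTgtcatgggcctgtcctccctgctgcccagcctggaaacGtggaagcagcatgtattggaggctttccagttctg
Psat1 chr19:15980539-15980638 (-): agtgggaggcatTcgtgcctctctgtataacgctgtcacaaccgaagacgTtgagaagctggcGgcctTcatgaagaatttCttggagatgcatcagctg
Gm12611 chr11:60631147-60631246 (+): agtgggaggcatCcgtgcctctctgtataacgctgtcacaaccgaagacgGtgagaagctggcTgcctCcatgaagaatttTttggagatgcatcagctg

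The *Tdh* pair differs at 1 of the 100 bases, the *Phgdh* pair at 2 and the *Psat1* pair at 5. A read of a length near that of the window can thus match both loci when that many mismatches are allowed. With 2 or fewer allowed, no window of 100 bases along the exons of *Psat1* has a copy elsewhere.

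Of the 10 enzymes, 8 were higher in ES cells and 2 in the forebrain. *Tdh*, *Gldc*, *Mthfd1* and *Shmt1* were at least 2-fold higher in ES cells, and *Phgdh* was the only one at least 2-fold higher in the forebrain. Among all listed genes, 23.3% were at least 2-fold higher in ES cells and 25.8% in the forebrain, and among listed protein-coding genes these shares were 18.9% and 27.9%. The median log2 ratio of the enzymes, ES cells over the forebrain, was 0.68, whereas it was -0.01 over all listed genes and -0.17 over listed protein-coding genes. Percentile 75 of the log2 ratios of protein-coding genes was 0.69. The median of the enzymes was 0.40 without *Tdh*. Scaling each sample by another total, quartile or median amounts to a common shift of -0.27 to 0.63 in the log2 ratios before the 1 is added. Low values can move further, and the log2 ratio of *Tdh* was 7.08 per 1000000 reads. The enzymes kept their direction under each scaling except *Mat2a*, but the number at least 2-fold higher in the forebrain went from 0 to 2 and that in ES cells reached 7.

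The summed RPKM of the 10 enzymes was 34733 in ES cells and 12074 in the forebrain, a ratio of 2.88. *Tdh* alone made up 22.7% of the sum in ES cells and 0.0506% in the forebrain. Without *Tdh* the ratio of the sums was 2.22. With reads of the pseudogenes left out, *Mthfd1* took the greatest share in both samples, 29.6% and 23.7%. *Mat2a* went from 7.46% of the sum in ES cells to 19.3% in the forebrain and *Psat1* from 7.96% to 17.3%.

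**Figure D1:**
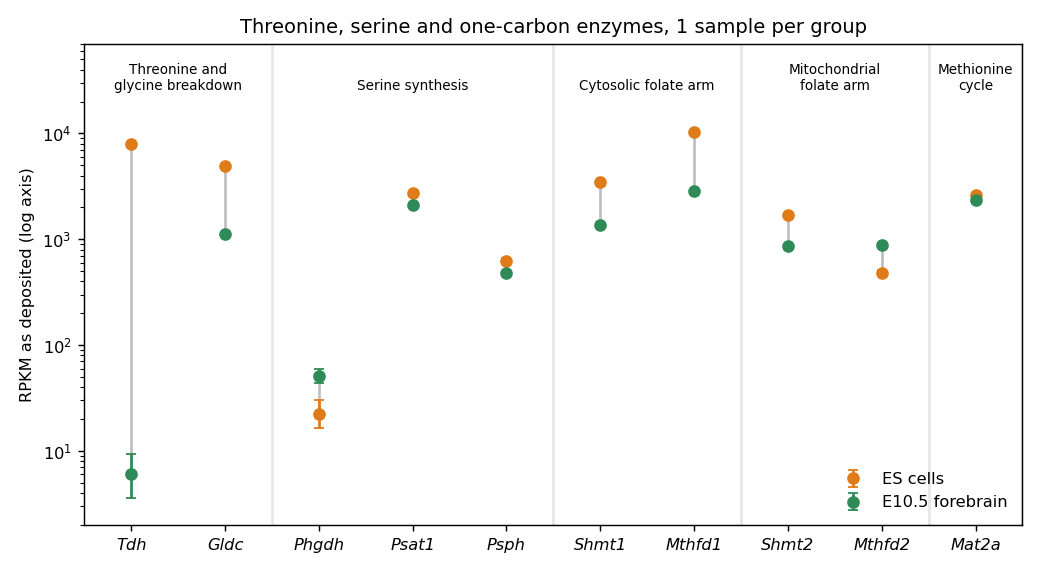
RPKM of each enzyme (log axis) in ES cells (orange) and E10.5 forebrain (green), with 1 sample per group, grouped by role. Error bars are exact 95% counting intervals, which for most points are smaller than the symbol. *Tdh* spans from 7882.34 to 6.11, and *Phgdh* and *Mthfd2* are the only enzymes with the green point above the orange one.

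*Tdh*, the gene of threonine dehydrogenase (ENSMUSG00000021953, chr14:64111184-64127929, minus strand, 10 exons), was listed at 7882.34 RPKM in ES cells (7764 to 8002, 16875 reads). It was listed at 6.11 RPKM in the forebrain (3.59 to 9.3, 19 reads). ES cells were thus 1290-fold higher (847 to 2199), with a log2 ratio of 10.11 on the log2(RPKM + 1) scale. Only 4 of the 19620 protein-coding genes had a greater ratio in this direction. *Tdh* stood at percentile 98.2 of all listed genes in ES cells and at percentile 27.8 in the forebrain.

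The 5 protein-coding genes nearest to *Tdh*, by the distance between pairs of log2(RPKM + 1) values over the 2 samples, were *Tdgf1* (distance 0.43), *Dnmt3l* (0.572), *Nanog* (0.839), *Tcfcp2l1* (1.03) and *Trap1a* (1.05). *Tdgf1*, which encodes a Nodal co-receptor, was listed at 6431.61 RPKM in ES cells and 4.72 in the forebrain. The pluripotency factor *Nanog* was listed at 4968.03 and 9.13. Likeness over 2 samples only says that these genes were high in 1 sample and low in the other.

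Part of the sequence of *Tdh* has a close copy on chromosome 2. Of the windows of 50 bases along its exons, 40.1% occur elsewhere in the genome with 2 or fewer differing bases, and 14.8% of windows of 100 bases do. The pseudogene *Gm13929*, which aligns to 55.4% of the exonic bases of *Tdh* with 96.4% identity, was listed at 19711.13 RPKM in ES cells and 16.75 in the forebrain. These values are 2.5 and 2.74 times those of *Tdh*. The pooled reads of *Tdh* and *Gm13929* gave a ratio of 1229 (919 to 1725), an alternative added after the data were seen. This value had to lie between the ratios of *Tdh* and *Gm13929*, 1290 and 1177, so pooling could not change its size much. How far reads of *Tdh* and *Gm13929* were shared within a sample was not tested. A transcript on the opposite strand, *Gm17232*, shares 66 exonic bases (2.52%) with *Tdh* and was listed at 3703.48 RPKM in ES cells and 1.81 in the forebrain. Whether the counting used strand is not given in the sources used here.

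*Gldc* encodes the decarboxylase of the glycine cleavage system (ENSMUSG00000024827, chr19:30172939-30249908, minus strand, 25 exons). It was listed at 4898.43 RPKM in ES cells (4820 to 4977) and 1120.96 in the forebrain (1090 to 1152). ES cells were 4.37-fold higher (4.23 to 4.51), the second ratio in size among the enzymes, and no window of its exons had a copy elsewhere. Unlike *Tdh*, *Gldc* stayed among the highly listed genes of the forebrain, at percentile 89.0.

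The other enzymes of threonine and glycine breakdown were read from a list of 8 genes, 2 of which are *Tdh* and *Gldc*. Of the 8, 5 were at least 2-fold higher in ES cells and 1 in the forebrain, with a median log2 ratio of 1.64. For listed protein-coding genes the shares past 2-fold were 18.9% and 27.9%. *Gcat*, the ligase that acts on the product of threonine dehydrogenase, was listed at 1755.37 RPKM in ES cells and 449.85 in the forebrain, a 3.9-fold difference (3.71 to 4.1). *Amt*, the aminomethyltransferase of the glycine cleavage system, was listed at 4064.07 and 1057.23, a 3.84-fold difference (3.66 to 4.04). *Gcsh*, which carries the aminomethyl group, was listed at 950.38 and 374.06, a 2.54-fold difference, but 57.8% of its windows of 50 bases have a copy elsewhere. *Dld*, the dihydrolipoamide dehydrogenase that also serves the pyruvate and oxoglutarate dehydrogenase complexes, was listed at 2461.07 in ES cells and at 3451.25 in the forebrain, 1.4-fold higher in the latter. This direction turned when the values were divided by the median of protein-coding genes, to a log2 ratio of 0.14. *Sdsl*, a serine dehydratase-like gene, was listed at 0.82 RPKM from 1 read in ES cells and 59.09 from 108 reads in the forebrain, 72.1-fold higher in the latter (12.7 to 2889). Serine dehydratase itself, *Sds*, was low in both samples, at 3.78 and 5.59 RPKM from 5 and 11 reads.

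The 3 enzymes of serine synthesis did not all differ in 1 direction. *Psat1*, the aminotransferase of the second step (ENSMUSG00000024640, chr19:15979168-16021827, minus strand), was listed at 2764.03 RPKM in ES cells (2709 to 2820) and 2094.77 in the forebrain (2056 to 2134). ES cells were 1.32-fold higher (1.28 to 1.36). *Psph*, the phosphatase of the last step (ENSMUSG00000029446, chr5:130271434-130293129, minus strand), was listed at 625.21 (586 to 667) and 474.87 (447 to 504), which is again 1.32-fold higher in ES cells (1.2 to 1.44). Both genes had a log2 ratio of 0.40, at percentiles 67.3 and 67.2 of the protein-coding genes.

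*Phgdh*, the dehydrogenase that commits the glycolytic intermediate to serine (ENSMUSG00000053398, chr3:98117093-98143913, minus strand, 13 exons), was the lowest of the 10 enzymes in ES cells, at 22.46 RPKM (16.5 to 30.1, 46 reads). It was listed at 51.21 in the forebrain (43.4 to 59.8, 155 reads), where only *Tdh* was lower. The forebrain was 2.28-fold higher (1.62 to 3.22), with a log2 ratio of -1.15. *Phgdh* was thus listed far below *Psat1* and *Psph*, the enzymes of the next steps, at percentiles 42.0 and 48.1 against 94.9 and 94.4 for *Psat1*.

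Much of the sequence of *Phgdh* is also found elsewhere. Of its windows of 50 bases, 66.6% have a copy in the genome and 61.7% have 5 or more. For windows of 100 bases these shares are 56.7% and 19.3%. The gene has 22 copies on 13 chromosomes, with identities from 85.8% to 98.9% to its exons. Only 7 of them overlap a listed pseudogene, and other types of gene were not looked for there. Fractions of a read occur among the low deposited values, since 225 genes in ES cells were listed at 1 read divided by 2 and 150 at 1 read divided by 5, while 0 were listed at 1 read divided by 6 to 10. Whether reads that match more than 5 places were left out is not given in the sources used here, and the part of the copies in the level of *Phgdh* was not tested. The closest copy, *Gm7901* on chromosome 8 with 98.9% identity, was listed at 9.44 RPKM in ES cells and 28.23 in the forebrain, 2.99-fold higher in the latter. Taking its reads together with those of *Phgdh*, as was decided after the data were seen, gave a log2 ratio of -1.28. The genes nearest to *Phgdh* over the 2 samples were *Cul9*, *Chst7*, *Zfp580*, *Wnk4* and *Adarb1*, at distances of 0.0554 to 0.107.

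**Figure D2:**
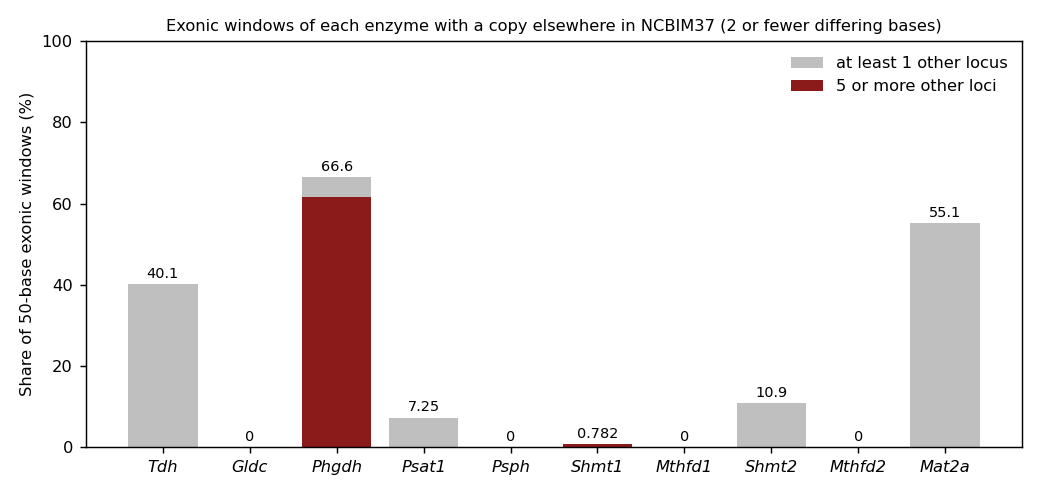
Share of windows of 50 bases along the exons of each enzyme (y axis, percent) that occur elsewhere in NCBIM37 with 2 or fewer differing bases, at 1 or more loci (grey) or at 5 or more (dark red). *Phgdh* reaches 66.6%, *Mat2a* 55.1% and *Tdh* 40.1%, whereas *Gldc*, *Psph*, *Mthfd1* and *Mthfd2* are at 0.

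*Psat1* has 1 copy, on chromosome 11, at 89.5% identity over 44.7% of its exonic bases, and 7.25% of its windows of 50 bases match it. The listed pseudogene at this place, *Gm12611*, was listed at 2798.58 RPKM in ES cells and 2078.47 in the forebrain. Per kb of exon it was therefore within a few percent of *Psat1* itself in both samples, with ratios of 1.01 and 0.992. The ratio of *Psat1* between samples was 1.32 with or without the reads of *Gm12611*. Pooling could not move it far, since *Gm12611* itself had a ratio of 1.35.

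The cytosolic enzymes of the folate pathway were both at least 2-fold higher in ES cells. *Mthfd1*, the trifunctional enzyme that interconverts folate-bound carbon units (ENSMUSG00000021048, chr12:77356219-77420807, plus strand, 28 exons), was listed highest of the 10 enzymes in both samples. It was listed at 10271.23 RPKM in ES cells (10151 to 10392) and 2865.71 in the forebrain (2814 to 2918), 3.58-fold higher in ES cells (3.51 to 3.66). *Shmt1*, the cytosolic serine hydroxymethyltransferase (ENSMUSG00000020534, chr11:60601606-60625220, minus strand), was listed at 3507.12 (3442 to 3573) and 1378.51 (1345 to 1412), 2.54-fold higher in ES cells (2.47 to 2.62). *Smcr8*, on the opposite strand, shares 184 exonic bases (4.74%) with *Shmt1* and was itself listed at 631.97 and 262.35 RPKM.

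In the list of 8 cytosolic folate and thymidylate genes, 3 were at least 2-fold higher in ES cells and 0 in the forebrain. The median log2 ratio was -0.11, and the shares over listed protein-coding genes were 18.9% and 27.9%. The third gene past 2-fold was *Aldh1l1*, the dehydrogenase of formyltetrahydrofolate. It was listed at 505.85 RPKM in ES cells and 36.13 in the forebrain, 14-fold higher in ES cells (12.1 to 16.3). *Tyms*, thymidylate synthase, was listed at 524.71 and 482.18, a difference of less than 2-fold, with copies over 43.3% of its windows.

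The mitochondrial enzymes split between the samples. *Shmt2*, the mitochondrial serine hydroxymethyltransferase (ENSMUSG00000025403, chr10:126954195-126959491, minus strand), was listed at 1688.6 RPKM in ES cells (1630 to 1749) and 869.21 in the forebrain (835 to 904). ES cells were 1.94-fold higher (1.84 to 2.05), just short of the 2-fold limit. Its copy *Gm15544*, with 10.9% of windows of 50 bases and 2.02% of those of 100 bases in common, was listed at 625.19 and 308.43. *Mthfd2*, the mitochondrial dehydrogenase and cyclohydrolase (ENSMUSG00000005667, chr6:83255685-83267600, minus strand), was listed at 481.71 (453 to 511) and 888.3 (857 to 921). The forebrain was 1.84-fold higher (1.72 to 1.98), and no window of its exons has a copy elsewhere. *Mthfd2* and *Shmt2* were the only neighbours in the order of levels, in either sample, whose intervals overlapped, and this was in the forebrain.

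Of the 7 mitochondrial folate genes listed together, 2 were at least 2-fold higher in ES cells and 1 in the forebrain. Their median log2 ratio was -0.21. Counts this small are not read as a difference from the shares over listed protein-coding genes, 18.9% and 27.9%. *Mthfd1l*, which releases formate from the carbon units in mitochondria, was listed at 2126.81 and 971.64, 2.19-fold higher in ES cells (2.11 to 2.27). The mitochondrial folate carrier *Slc25a32* was listed at 415.8 and 139.34, 2.98-fold higher in ES cells (2.67 to 3.32). *Mthfd2l*, the paralog of *Mthfd2*, was listed at 33.87 in ES cells and 427.5 in the forebrain, 12.6-fold higher in the latter (9.77 to 16.6), with copies over 52.3% of its windows. *Aldh1l2*, the mitochondrial counterpart of *Aldh1l1*, was listed at 40.44 and 52.67, with a log2 ratio of -0.37 that became 0.25 when the values were divided by the median of protein-coding genes.

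Ratios of paralogs within a sample do not depend on the scaling between samples. The ratio of *Mthfd2* to *Mthfd1* was 0.0469 in ES cells (0.0441 to 0.0498) and 0.31 in the forebrain (0.298 to 0.323), a 6.61-fold difference. The ratio of *Shmt2* to *Shmt1* was 0.481 in ES cells (0.463 to 0.501) and 0.631 in the forebrain (0.601 to 0.661), a 1.31-fold difference. Both mitochondrial enzymes thus had a greater weight relative to their cytosolic paralogs in the forebrain, but remained below them in both samples. *Mthfd2* was 14.2 times *Mthfd2l* in ES cells (11 to 18.7) and 2.08 times in the forebrain (1.94 to 2.22).

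*Mat2a* encodes the catalytic subunit of the methionine adenosyltransferase found outside the liver, which makes S-adenosylmethionine (ENSMUSG00000053907, chr6:72382793-72389552, minus strand). It was listed at 2592.14 RPKM in ES cells (2533 to 2653) and 2324.46 in the forebrain (2278 to 2371). ES cells were 1.12-fold higher (1.08 to 1.15), the smallest difference of the 10 enzymes, and its sign turned when the values were divided by their column sum, to a log2 ratio of -0.12. A sequence on chromosome 5, without a listed pseudogene, aligns to 82.8% of the exonic bases of *Mat2a* with 94.7% identity. Found there too are 55.1% of windows of 50 bases and 27.6% of those of 100 bases. The liver paralog *Mat1a* was listed at 0.38 from 1 read in ES cells and at 0 in the forebrain.

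Of the 12 genes of the methionine cycle, 4 were at least 2-fold higher in ES cells and 2 in the forebrain. Their median log2 ratio was 0.61, and 18.9% and 27.9% of listed protein-coding genes were past the same limits. *Mat2b*, the regulatory partner of *Mat2a*, was listed at 1515.65 and 894.27, 1.69-fold higher in ES cells. *Ahcy*, which hydrolyses S-adenosylhomocysteine, was listed at 2208.59 and 1217.41, 1.81-fold higher in ES cells, but 72.4% of its windows have copies. Methionine synthase, *Mtr*, was listed at 926.29 and 669.51. Its reductase *Mtrr* was listed at 573.41 and 200.85, 2.85-fold higher in ES cells, with copies over 25.3% of its windows. The betaine-dependent methyltransferases were read in ES cells and listed at 0 in the forebrain. In ES cells *Bhmt* was listed at 21.04 RPKM from 95 reads and *Bhmt2* at 160.18 from 324 reads. Copies were found for 31.7% of the windows of *Bhmt* and 19.1% of those of *Bhmt2*. *Gnmt*, glycine N-methyltransferase, was low in both samples, at 20.25 and 5.43. Higher in the forebrain were *Ahcyl1*, a relative of *Ahcy*, at 448.11 against 1014.74, and *Nnmt*, nicotinamide N-methyltransferase, at 0.77 from 1 read against 23.13.

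**Figure D3:**
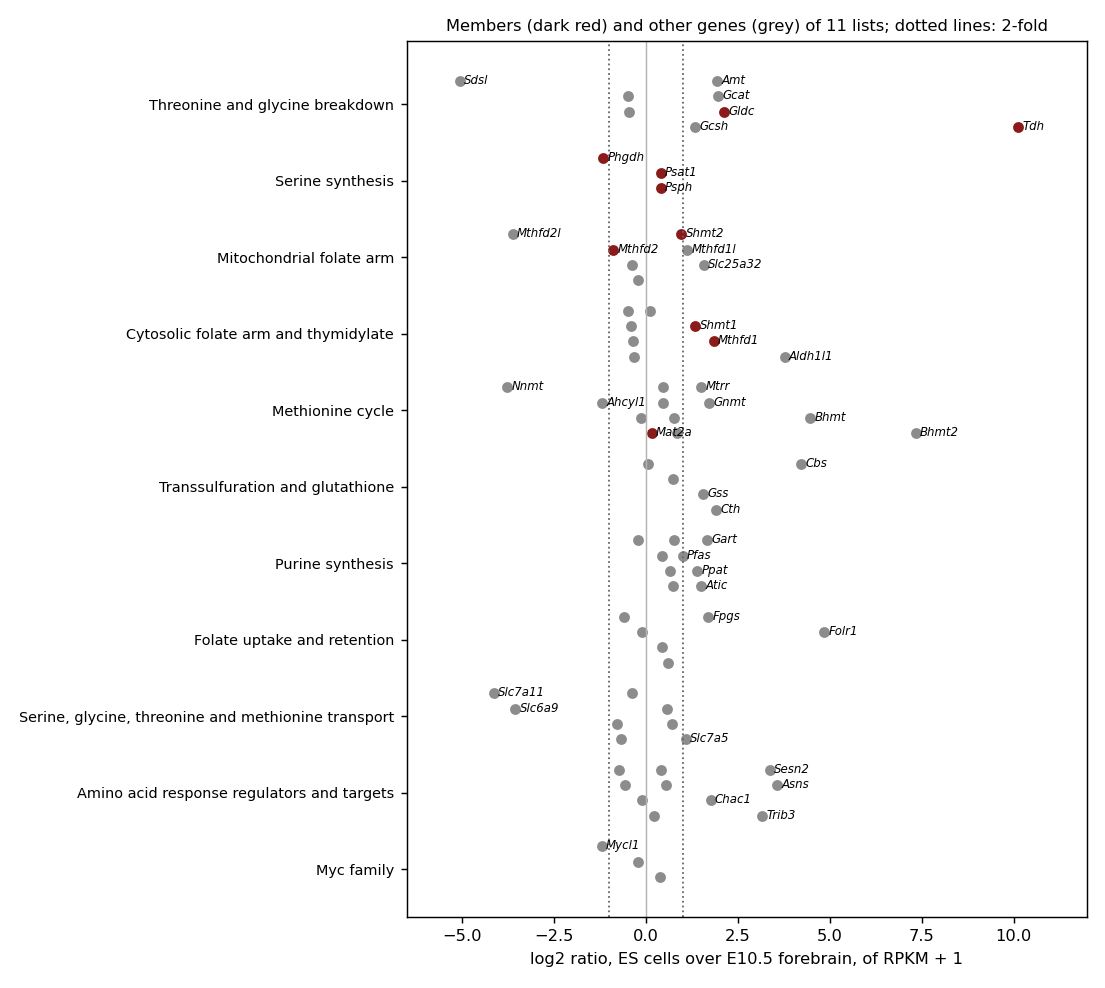
Log2 ratio of RPKM + 1, ES cells over E10.5 forebrain (x axis), of each gene of 11 lists (rows, with points spread vertically for legibility). The 10 enzymes are dark red and the other genes grey, and the enzymes and all genes past 2-fold (dotted lines) are named. *Tdh* lies at 10.11, farther out than any other gene shown.

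In the order of levels in ES cells, *Mthfd1* was followed by *Tdh*, *Gldc*, *Shmt1*, *Psat1*, *Mat2a*, *Shmt2*, *Psph*, *Mthfd2* and *Phgdh*, and the counting intervals of all 9 pairs of neighbours were apart. The first and second places rest on reads listed for *Tdh* alone. Together with *Gm13929*, *Tdh* had 35029 reads in ES cells against 27951 for *Mthfd1*, and the order with pooled reads was not tested. Copies of *Mat2a* and *Phgdh* elsewhere may also bear on their places in either sample, which was not tested. In the forebrain the order was *Mthfd1*, *Mat2a*, *Psat1*, *Shmt1*, *Gldc*, *Mthfd2*, *Shmt2*, *Psph*, *Phgdh* and *Tdh*. *Tdh* thus went from the second to the last place and *Gldc* from the third to the fifth, whereas *Mat2a* moved up from the sixth to the second. Of the 10 enzymes, 8 stood at percentile 77.1 of all listed genes or above in both samples, and *Tdh* in the forebrain and *Phgdh* in both were the values below.

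**Figure D4:**
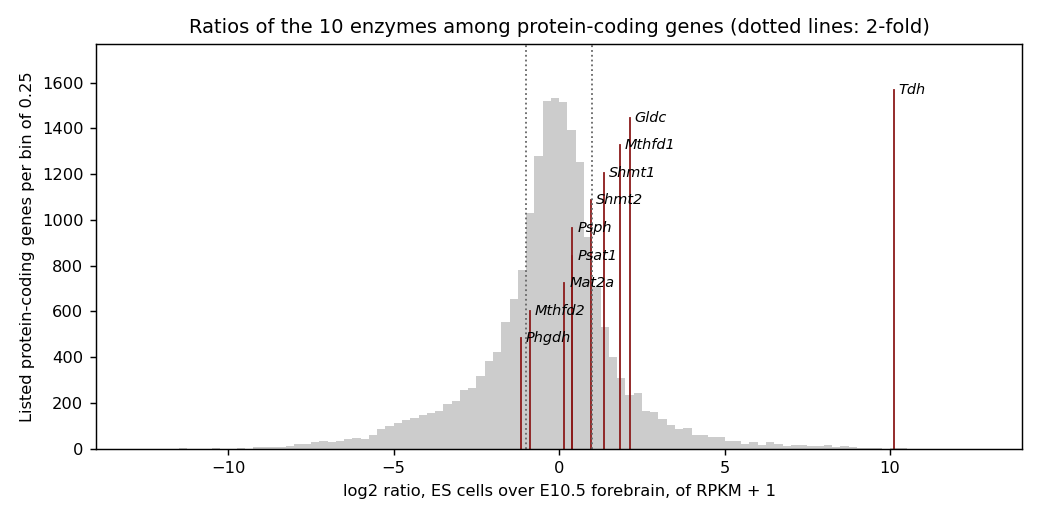
Histogram of log2 ratios of RPKM + 1, ES cells over E10.5 forebrain (x axis), for the 19620 listed protein-coding genes (y axis, genes per bin), with the 10 enzymes as dark red lines whose heights have no meaning. *Mat2a*, *Psat1*, *Psph*, *Shmt2* and *Mthfd2* lie within the 2-fold limits (dotted lines) where most genes lie, and *Tdh* lies in the far right tail.

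The promoters of the enzymes were searched for 2 short motifs on both strands, in the 250 bases before and 50 bases after the start of each gene, from RefSeq (GRCm38.p6). The table gives 10 promoters for 9 of the enzymes and was without *Tdh*. None of the 10 held CACGTG, the E-box bound by Myc and related factors, which is found in 7.15% of 32851 promoters. None held TGATGNAA, an amino acid response element, which is found in 3.97%. These letters are absent from these windows only, and nothing follows about the factors.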

How the data were processed

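RNA-seq of 1 ES cell sample and 1 E10.5 forebrain sample was used. Per the labels, strand-specific libraries were made from ribo-depleted total RNA and 100 bp single-end reads were mapped to NCBIM37 (mm9) with HTSstation, although the study's methods give another read length. The version of the pipeline is not given in the sources used here, and Bowtie 0.12.7 is named in the submitters' processing notes. The authors deposited 1 RPKM value per gene and sample, without counts. The values are not per 1000000 reads on genes, since 1 read in 1 kb of exon was worth 1.221 in ES cells and 0.8198 in the forebrain.

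This step was estimated from low values of genes with up to 2500 bases of exon, of which 59.3% and 61.1% lay within 0.05 of a whole read, and reads per gene were inferred from it. All 29311 listed genes carried the coordinates of the annotation of the same build. Ratios were taken on log2(RPKM + 1) with no filter on low values. Intervals of values are exact Poisson 95% intervals, and those of ratios are exact conditional binomial (Clopper-Pearson) intervals, both for counting error only. The scripts were tested on simulated data. With 1 sample per group there was no test.

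Copies were sought with blastn 2.17.0 in the genome, at 85% identity or more. Those described as copies of an enzyme cover at least 10% of its exonic bases. Shares of windows have no such limit and count any match, including repeats. Genes other than the 10 enzymes were searched with longer words, a stricter E-value and simple sequence masked. Their shares are therefore not from the same search as those of the enzymes. Python 3.11.15, numpy 2.4.6, pandas 2.3.3, scipy 1.17.1 and matplotlib 3.10.9 were used. The 10 enzymes, the lists and the alternatives were chosen with earlier results of these data known. Genes named are the 10 enzymes, genes of 11 pathway lists past 2-fold or next to an enzyme in the pathway, and the 5 nearest to the enzyme with the greatest ratio in each direction. Some genes that meet this rule are not reported here.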

Additional observations from a re-analysis of the deposited data

How the results depend on the processing

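With 1 sample per group, no setting shows the spread between samples. No paired analysis was possible because each group has 1 sample. The counts of enzymes at least 2-fold apart moved with the scaling. Dividing by the column sum gave 2 enzymes higher in the forebrain, a median log2 ratio of 0.41, a ratio of sums of 2.38 and the reversal of *Mat2a* to -0.12. Dividing by the upper quartile of protein-coding genes gave a median of 0.81 and a ratio of sums of 3.15. Dividing by their median gave 7 enzymes higher in ES cells, 0 in the forebrain, a median of 1.31 and a ratio of sums of 4.46. Values per 1000000 reads gave 0 in the forebrain, a median of 0.57 and a ratio of 2.7. This scale makes values smaller against the added 1, which by construction draws low genes such as *Phgdh* and *Tdh* towards 0. A limit of 1.5-fold gave 2 in the forebrain, and a limit of 4-fold gave 2 in ES cells and 0 in the forebrain. Without *Tdh* the median was 0.40 and the ratio of sums 2.22. Over all alternatives the log2 ratio of *Tdh* ran from 7.08 to 10.70, that of *Gldc* from 1.85 to 2.76, that of *Phgdh* from -1.42 to -0.52 and that of *Mthfd2* from -1.15 to -0.25. The 19 reads of *Tdh* in the forebrain and the 46 of *Phgdh* in ES cells limit the precision of their ratios. Adding the reads of 1 listed copy each to *Tdh*, *Psat1*, *Shmt2* and *Phgdh*, chosen after the data were seen, changed no direction. It could not have done so, because each copy differed in the direction of its enzyme, with ratios of 1177, 1.35, 2.03 and 0.334. For *Phgdh* only *Gm7901* was added, and for *Mat2a* no listed copy was found. Of the neighbouring genes *Dld* and *Aldh1l2*, tried under each scaling after the data were seen, both reversed when divided by the median of protein-coding genes, to 0.14 and 0.25.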

Other observations

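Pathways next to these enzymes, on lists chosen with earlier results known, are described by counts only. Together with the other genes of the lists named with the enzymes, they hold 69 genes that are not among the 10 enzymes. Of these 69, 24 (34.8%) were at least 2-fold higher in ES cells and 7 (10.1%) in the forebrain, with a median log2 ratio of 0.47. Over all listed protein-coding genes the shares were 18.9% and 27.9%. In purine synthesis, 4 of 9 genes were at least 2-fold higher in ES cells and 0 in the forebrain, with a median log2 ratio of 0.78. *Gart*, whose trifunctional product uses formyltetrahydrofolate, was listed at 9444.6 RPKM in ES cells and 2986.44 in the forebrain, 3.16-fold higher (3.1 to 3.23). *Atic*, the enzyme of the second formyl transfer, was listed at 3210.65 and 1136.23. *Ppat*, which commits to the pathway, was listed at 3526.74 and 1338.87. *Pfas* was 2.01-fold higher in ES cells, at the 2-fold limit. In transsulfuration and glutathione synthesis, 3 of 5 genes were at least 2-fold higher in ES cells and 0 in the forebrain. *Cbs*, which joins homocysteine to serine, was listed at 662.47 and 34.79, 19-fold higher (16 to 22.7). *Cth*, the enzyme of the next step, was listed at 1507.88 and 399.59, and glutathione synthetase, *Gss*, at 626.48 and 211.21. In folate uptake and retention, 2 of 6 genes were at least 2-fold higher in ES cells and 0 in the forebrain. The folate receptor *Folr1* was listed at 1238.67 and 42.43, 29.2-fold higher in ES cells (24.2 to 35.4), and *Fpgs*, which adds glutamates to folate, at 1426.65 and 439.66.

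Transport of serine, glycine, threonine and methionine was read from a list of 8 genes. Of these, 1 was at least 2-fold higher in ES cells and 2 in the forebrain, with a median log2 ratio of -0.51. The list also holds *Slc7a11*, which carries cystine, and this gene is 1 of the 2 higher in the forebrain. The glycine transporter *Slc6a9* was listed at 6.89 RPKM in ES cells and 91.45 in the forebrain, 13.3-fold higher in the latter (9.15 to 20). The cystine transporter *Slc7a11* was listed at 1.73 and 46.9, 27.1-fold higher in the forebrain (16.5 to 47.5), with copies over 11.4% of its windows of 50 bases. *Slc7a5*, a carrier of large neutral amino acids, was listed at 804.42 and 379.25. Of 10 regulators and targets of the amino acid response, 4 were at least 2-fold higher in ES cells and 0 in the forebrain. Asparagine synthetase, *Asns*, was listed at 21512.49 and 1804.54, 11.9-fold higher in ES cells (11.6 to 12.2), *Sesn2* at 1151.66 and 110.55, *Trib3* at 324.32 and 35.65, and *Chac1* at 19.39 and 5.0. The transcript of *Atf4*, a factor that is known to be regulated in large part by translation, was listed at 2723.58 and 2928.58. Of the 3 Myc genes, *Mycl1* was 2.3-fold higher in the forebrain (2.16 to 2.45), at 395.47 against 909.66 RPKM, and *Myc* and *Mycn* were within 2-fold. The 5 markers of primitive endoderm, a cell type that can arise in ES cell cultures, were listed at 3.12 RPKM or less in ES cells.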
